A study of Mus musculus with 12 samples.

Results

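The glutathione, thioredoxin and antioxidant genes were the rows whose symbol belonged to 1 of these families: superoxide dismutases, catalase, peroxiredoxins and sulfiredoxin, thioredoxins and thioredoxin reductases, glutaredoxins, glutathione peroxidases, enzymes of glutathione synthesis and reduction, glutathione S-transferases (GSTs), and Nfe2l2, Keap1, Nqo1 and Oxr1. Selection by symbol alone, without any measured value, gave 56 of the 14159 listed genes. RNA of whole inguinal white adipose tissue (iWAT) had been sequenced from 4 groups with 3 replicates each. Atf4WT mice carried floxed Atf4 alleles (Atf4 fl/fl) without Cre and were littermates of the Atf4AKO mice, which carried the same alleles and Adipoq-Cre. All mice were on a C57BL/6 background, and each genotype was kept at room temperature (RT, 22 °C) or exposed to 5 °C for 24 h. Adipoq-Cre acts in adipocytes, so that other cells of the tissue keep Atf4. Ages and sexes of the sequenced mice are not given in the sources used here. In RNA of a whole tissue, fewer cells of a type and less RNA per cell cannot be told apart.

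Superoxide, a by-product of the respiratory chain, is turned into hydrogen peroxide by superoxide dismutases. Catalase, peroxiredoxins and glutathione peroxidases then remove the peroxide. Peroxiredoxins are reduced by thioredoxin and glutathione peroxidases by glutathione, and both systems draw on NADPH. GSTs couple glutathione to lipid aldehydes and other electrophiles, and thermogenic adipocytes, which respire at a high rate when activated, depend on these systems.

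The listed genes held 25719476 to 29105147 reads in each library. Atf4 was lower in all 6 Atf4AKO libraries (788 to 1639 normalized counts) than in the 6 Atf4WT libraries (4107 to 7644), with a log2 difference of -2.60 after cold (limma adjusted p = 0.000644) and -1.61 at RT (adjusted p = 0.0762). Ucp1, the uncoupling protein of thermogenic adipocytes, lay between 204 and 1097 at RT and between 73632 and 119558 after cold, and all 6 markers of thermogenic adipocytes rose in both genotypes. The markers of white adipocytes were abundant in all libraries, with sums between 809031 and 1362910. Some libraries stood apart in the RNA of other cells. The 5 listed markers of skeletal muscle summed to 76872 in replicate 2 of Atf4WT at RT, to 27406 in replicate 0 of cold-exposed Atf4WT mice and to 2887 in replicate 1 of cold-exposed Atf4AKO mice, against 72 to 843 in the other libraries. B cell markers summed to 3653 to 12510 in cold-exposed Atf4WT libraries and to 3662 in replicate 2 of Atf4WT at RT, against 67 to 466 in the others. Macrophage markers summed to 6021 in replicate 1 of cold-exposed Atf4WT mice and to 3335 in replicate 1 of cold-exposed Atf4AKO mice, against 15577 to 31405 elsewhere. The counts of called members are also given below without the libraries highest in muscle markers and with lymphocyte markers as a covariate.

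Cold exposure raised one set of these genes and lowered another, and the same members made up most of both sets in the 2 genotypes. Of the 56 members, 54 were tested with limma, their mean over the 12 libraries being 10 normalized counts or more. Gstm3 and Gstt4 did not reach this mean, with at most 9.62 and 9.50 normalized counts in a library. In Atf4WT mice, 15 of 54 members rose and 13 fell at a Benjamini-Hochberg adjusted p-value under 0.05, where 17% of all 13404 tested genes rose and 14.9% fell. In Atf4AKO mice, 13 members rose and 8 fell, where 14.8% of all tested genes rose and 11% fell. In either direction 51.9% of the tested members were called in Atf4WT (31.9% of all tested genes) and 38.9% in Atf4AKO mice (25.9%). Cold and RT libraries did not overlap for 17 members that were higher and 18 that were lower in Atf4WT (23.9% and 22.9% of all tested genes), and for 18 and 12 in Atf4AKO mice (21.7% and 19.9%). At the threshold the study used (more than 1.5-fold, with p under 0.05 before adjustment), 11 rose and 8 fell in Atf4WT mice (10.9% and 10.3% of all tested genes), and 10 rose and 7 fell in Atf4AKO mice (8.3% and 8.92%). The median log2 fold change of the members was -0.026 in Atf4WT and 0.031 in Atf4AKO mice, beside 0.003 and -0.032 for all tested genes, so the members had no common direction.

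Sod2, Prdx1, Prdx3, Srxn1, Txn2, Txnrd1, Glrx, Gss, Gsta3, Gsto1, Mgst1 and Mgst2 rose in both genotypes (12 members). Prdx4, Gpx7, Gstm1, Gstm2, Gstm4, Gstt1, Gstt3 and Gsto2 fell in both (8 members). Of these calls, that of Gsto2 in Atf4AKO mice ended in 14 of 26 alternative fits, among them edgeR and the fits without a filter or with a replicate block, and that of Prdx4 in 11 of 26 in each genotype. No member was called in opposite directions, and 25 were called in neither genotype. The heat map of the libraries shows this division by enzyme class. The 2 cold responses share no library, and across the 54 members their log2 fold changes had a Pearson r of 0.884 (Spearman rho 0.911), compared with 0.594 (0.678) across all tested genes. Genes within a family are not independent points, so this is a description only.

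**Figure D1:**
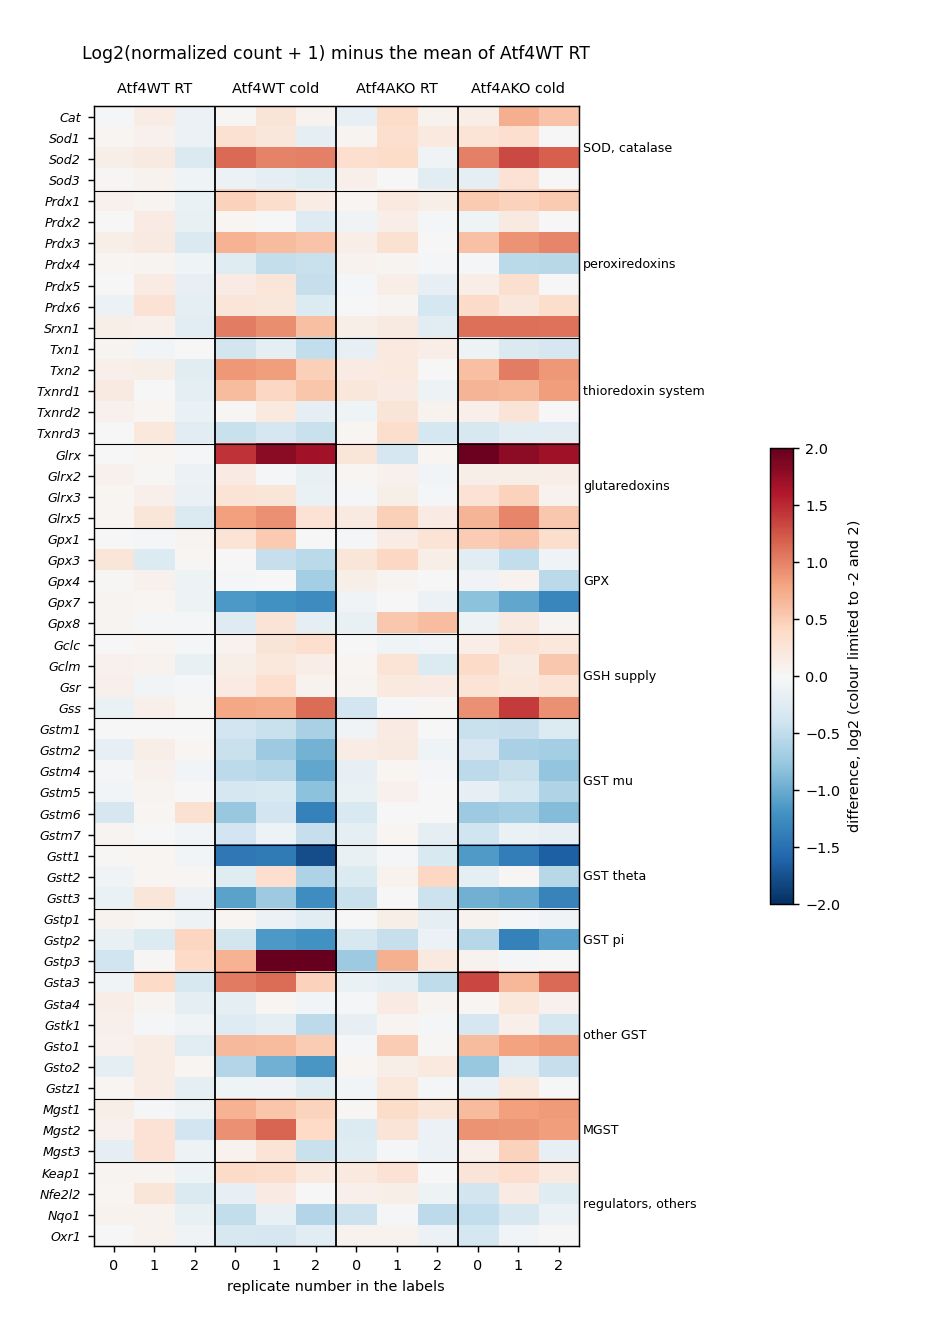
Heat map of the 54 tested members (lines, grouped by enzyme class) in the 12 libraries (columns), as log2(normalized count + 1) minus the mean of the 3 Atf4WT libraries at RT, with the colour scale limited to -2 and 2. Red marks higher and blue lower values. Glrx and Gss are red and Gstt1 and Gpx7 blue in all 6 cold libraries.

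The largest rise among the superoxide dismutases and catalase was in Sod2, the manganese enzyme of the mitochondrial matrix (chr17:13006846-13040063, plus strand, mm10). It measured 7052, 7417 and 5315 normalized counts in Atf4WT at RT and 14380, 12940 and 13054 after cold. In Atf4AKO it measured 8220, 8462 and 6238 at RT and 13058, 16343 and 14936 after cold. Cold and RT libraries did not overlap in either genotype, and the log2 fold change was 1.04 ± 0.15 (SE) in Atf4WT (limma adjusted p = 0.000714) and 0.96 ± 0.15 in Atf4AKO mice (adjusted p = 0.00133). Sod1, the cytosolic copper and zinc enzyme, measured 19826, 20510 and 17736 at RT and 23872, 22693 and 16847 after cold in Atf4WT, and 19985, 24428 and 22026 against 23313, 24459 and 19399 in Atf4AKO, so that its groups overlapped. Its log2 fold changes of 0.11 and 0.01 did not pass the test (adjusted p = 0.583 and 0.953), and neither did those of the extracellular Sod3 (-0.18 and 0.07). Cat, the peroxisomal catalase, measured 23998, 27079 and 22591 at RT and 25022, 29204 and 25845 after cold in Atf4WT. In Atf4AKO it measured 21956, 31734 and 25808 at RT and 26931, 40313 and 36472 after cold. Its groups overlapped in both genotypes, and neither of its log2 fold changes passed the test (0.12 and 0.38, adjusted p = 0.617 and 0.124). Per kilobase of exon, Sod2 made up 8.13% ± 0.80 (SD, n = 3) of the superoxide dismutase signal at RT and 15.2% ± 1.54 after cold in Atf4WT, and 8.64% ± 1.09 and 15.2% ± 1.42 in Atf4AKO mice. Sod1 remained the largest share, at 58.0% or more in all groups. The exon length here and below merges all annotated exons of a gene. The size of such shares therefore depends on the annotation.

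Of the 7 peroxiredoxin and sulfiredoxin genes, 3 rose and 1 fell in each genotype. Prdx3, the mitochondrial peroxiredoxin, measured 6703, 7037 and 5077 at RT and 10103, 9608 and 9256 after cold in Atf4WT. In Atf4AKO it measured 6828, 7644 and 6254 at RT and 9292, 11614 and 12268 after cold. These groups did not overlap, with log2 fold changes of 0.64 ± 0.14 and 0.67 ± 0.14 (adjusted p = 0.00609 and 0.00551). Prdx1, a cytosolic form, rose by less, from 14863, 14497 and 12813 to 19413, 17862 and 15502 in Atf4WT and from 14405, 16022 and 15160 to 20112, 19230 and 20097 in Atf4AKO. The change was 0.32 ± 0.10 in Atf4WT and 0.38 ± 0.10 in Atf4AKO mice on the log2 scale (adjusted p = 0.0308 and 0.0174). Srxn1 encodes sulfiredoxin, which restores over-oxidised peroxiredoxins, and it went from 1178, 1173 and 936 to 2226, 2071 and 1662 in Atf4WT. In Atf4AKO it went from 1184, 1235 and 944 to 2328, 2341 and 2320, so that every cold library was above every RT library. The log2 fold changes were 0.86 ± 0.14 and 1.06 ± 0.14 (adjusted p = 0.00113 and 0.00042). Prdx4, the peroxiredoxin of the endoplasmic reticulum, fell by 0.39 and 0.41 on the log2 scale (adjusted p = 0.0424 and 0.0404), and Prdx2, Prdx5 and Prdx6 did not pass the test. Prdx3 made up 26.1% of the peroxiredoxin signal per kilobase at RT and 33.5% after cold in Atf4WT, and 27.7% and 33.8% in Atf4AKO mice.

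Of the thioredoxins, the mitochondrial one rose in both genotypes. Txn2, the mitochondrial thioredoxin, measured 5996, 6071 and 4872 at RT and 10288, 10068 and 7815 after cold in Atf4WT, and 6314, 6418 and 5638 against 8549, 11445 and 10253 in Atf4AKO. The cold libraries were all above the RT libraries, with log2 fold changes of 0.73 ± 0.14 and 0.71 ± 0.14 (adjusted p = 0.00307 and 0.00419). Txn1, the cytosolic thioredoxin, was lower after cold in Atf4WT, at 3550, 3999 and 3244 against 4719, 4391 and 4577 (log2 fold change -0.35 ± 0.11, adjusted p = 0.0337), a call that ended in 8 of 26 alternative fits, including those without any one of the RT libraries or without replicate 0 or 2 after cold. In Atf4AKO its groups overlapped (-0.30, adjusted p = 0.0675). Per kilobase of exon, Txn2 made up 23.6% ± 2.37 of the signal of both thioredoxins at RT and 39.4% ± 2.31 after cold in Atf4WT, and 24.4% ± 3.14 and 39.4% ± 5.29 in Atf4AKO mice (SD, n = 3). Txnrd1, the reductase of the cytosol, rose by 0.54 and 0.63 on the log2 scale (adjusted p = 0.00524 and 0.00279), whereas the log2 fold changes of the mitochondrial Txnrd2 (0.02 and 0.04) and of Txnrd3 (-0.41 and -0.27) did not pass the test.

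**Figure D2:**
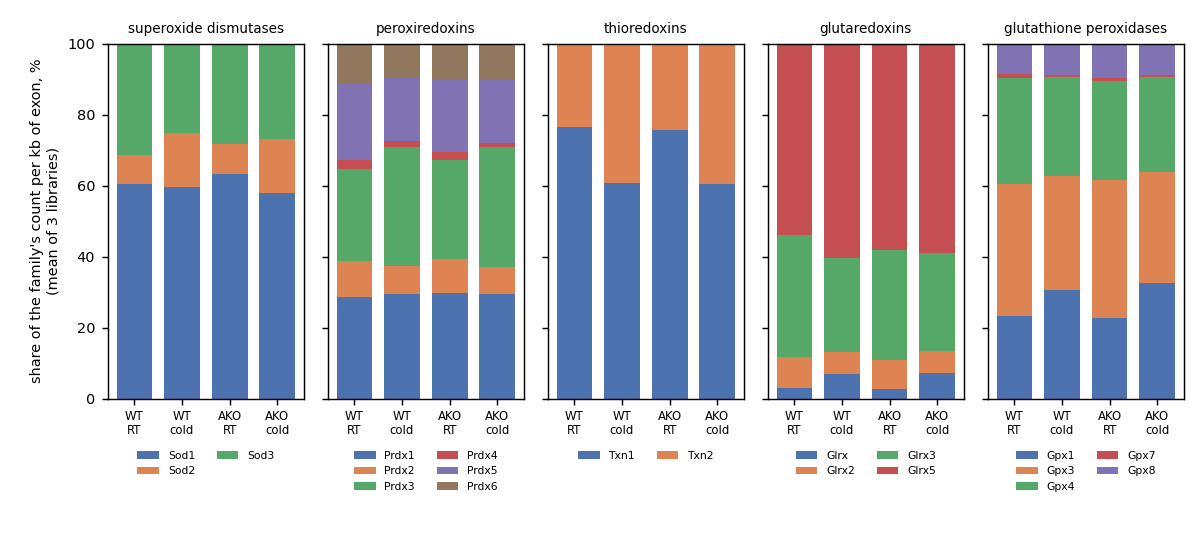
Stacked bars of the share of each gene in the signal of its family per kilobase of exon (percent, mean of 3 libraries) in the 4 groups, for 5 enzyme families. Sod2 and Txn2 take larger shares after cold in both genotypes, 15.2% of the superoxide dismutases and 39.4% of the thioredoxins, on average in each genotype.

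Glrx, a cytosolic glutaredoxin that uses glutathione to reduce mixed disulfides, had the largest change among the members that passed the test in both genotypes (chr13:75839868-75850154, plus strand). It measured 221, 229 and 218 normalized counts at RT and 607, 777 and 712 after cold in Atf4WT, and 264, 175 and 228 against 866, 770 and 719 in Atf4AKO. All 6 cold libraries lay above all 6 RT libraries, at 3.14-fold in Atf4WT and 3.53-fold in Atf4AKO mice by group means (log2 fold changes 1.64 ± 0.15 and 1.83 ± 0.15, adjusted p = 6.88e-05 and 4.2e-05). Glrx was still the lesser part of its family, at 6.90% and 7.19% of the glutaredoxin signal per kilobase after cold. Glrx5, the mitochondrial glutaredoxin of iron-sulfur cluster assembly, rose in Atf4WT (log2 fold change 0.67 ± 0.18, adjusted p = 0.0186), and in Atf4AKO its value was 0.46 ± 0.18 (adjusted p = 0.091). Glrx2 and Glrx3 had log2 fold changes of -0.01 to 0.10 and of 0.12 to 0.25, respectively, and did not pass the test.

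Glutathione is made in 2 steps, by glutamate-cysteine ligase (Gclc, catalytic, and Gclm, modifier) and by glutathione synthetase (Gss), and is reduced again by Gsr. Gss measured 670, 785 and 746 at RT and 1256, 1226 and 1584 after cold in Atf4WT. In Atf4AKO it measured 560, 721 and 743 at RT and 1375, 1923 and 1380 after cold. The groups did not overlap, and the log2 fold changes were 0.88 ± 0.16 and 1.20 ± 0.16 (adjusted p = 0.00238 and 0.000521). The genes of the first, rate-limiting step moved by less. Gclc had log2 fold changes of 0.22 ± 0.08 in Atf4WT (adjusted p = 0.0666) and 0.26 ± 0.08 in Atf4AKO mice (adjusted p = 0.0461), and those of Gclm (0.15 and 0.35) and Gsr (0.19 and 0.12) did not pass the test. Glutathione itself was not measured in these libraries.

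Among the glutathione peroxidases only Gpx7 changed at an adjusted p-value under 0.05 in the main limma fit. In Atf4AKO mice DESeq2 also called Gpx3 lower and Gpx1 higher, and some other alternative fits called 1 of them. Gpx7, a peroxidase of the endoplasmic reticulum without selenocysteine, fell from 663, 658 and 598 to 289, 275 and 266 in Atf4WT and from 612, 635 and 589 to 362, 311 and 259 in Atf4AKO. Cold libraries were all below RT libraries, with log2 fold changes of -1.21 ± 0.12 and -0.99 ± 0.12 (adjusted p = 9.93e-05 and 0.000343). Gpx1, the cytosolic and mitochondrial selenoenzyme, measured 14260, 13963 and 14869 at RT and 17417, 20671 and 14220 after cold in Atf4WT, and 13922, 15893 and 17267 against 20330, 21316 and 18308 in Atf4AKO, where the groups did not overlap. Neither value of Gpx1 passed the test, at 0.26 and 0.35 on the log2 scale (adjusted p = 0.153 and 0.0745). Gpx3, the secreted form, had values of -0.33 and -0.52 (adjusted p = 0.179 and 0.0514), and Gpx4, which reduces lipid peroxides in membranes, of -0.23 and -0.24. Both lay among the most abundant members per kilobase of exon, with means of 15152 for Gpx3 and 12169 for Gpx4 over the 12 libraries, next to 15938 for Mgst1, 11707 for Gpx1 and 10746 for Cat. Among the 6 selenoenzymes (Gpx1, Gpx3, Gpx4, Txnrd1, Txnrd2 and Txnrd3), Txnrd1 was the single member called in the main fit, in both genotypes.

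**Figure D3:**
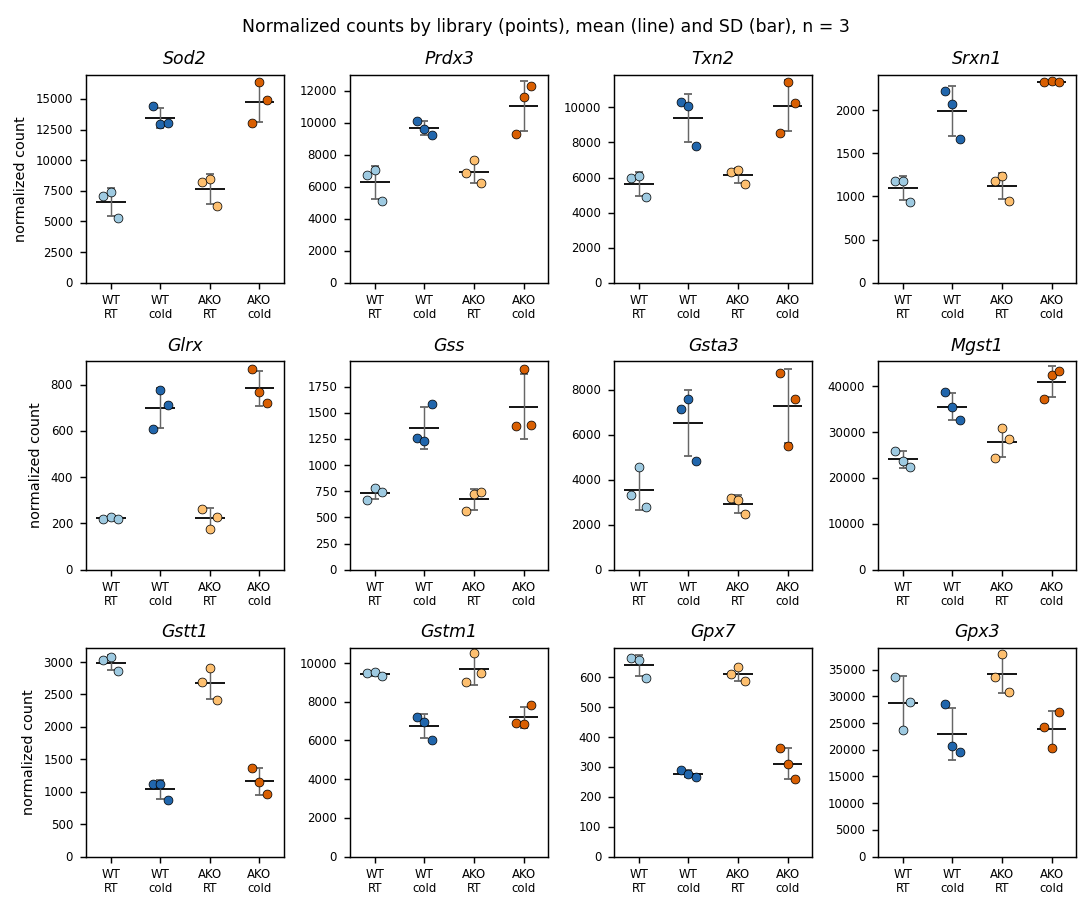
Normalized counts of 12 members in each library (points), with the mean (black line) and SD (bar) of the 3 libraries of each group, on linear axes that start at 0. Sod2, Prdx3, Txn2, Srxn1, Glrx, Gss, Gsta3 and Mgst1 are higher and Gstt1, Gstm1 and Gpx7 lower in cold than in RT libraries without overlap, and Gpx3 overlaps in Atf4WT.

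The soluble GSTs were the largest family, with 18 of 20 members tested, of which 3 rose and 9 fell in Atf4WT and 2 rose and 6 fell in Atf4AKO mice. Their median log2 fold changes were -0.40 and -0.34. The falls were mostly in the mu and theta classes, whose genes lie in clusters. In the mu class, which spans 149 kb on chr3:107895821-108044894, all 6 tested genes had log2 fold changes below 0 in both genotypes, and 5 of 6 fell in Atf4WT and 3 of 6 in Atf4AKO mice (medians -0.60 and -0.48). Gstm1, the most abundant of them, measured 9466, 9525 and 9343 at RT and 7207, 6969 and 6034 after cold in Atf4WT, and 9021, 10542 and 9466 against 6908, 6863 and 7820 in Atf4AKO. Its groups did not overlap (log2 fold changes -0.49 ± 0.09 and -0.43 ± 0.09, adjusted p = 0.00271 and 0.00664). Gstm2 (-0.70 and -0.63) and Gstm4 (-0.71 and -0.53) also fell in both genotypes, Gstm5 and Gstm6 passed the test in Atf4WT alone, and Gstm7 (-0.31 and -0.12) in neither.

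In the theta class, a cluster of 63.3 kb on chr10:75774115-75837424, Gstt1 and Gstt3 fell in both genotypes and Gstt2 did not pass the test. Gstt1 had the largest fall of the 54 tested members, from 3026, 3079 and 2868 to 1114, 1126 and 871 in Atf4WT and from 2696, 2901 and 2420 to 1367, 1144 and 962 in Atf4AKO. The cold mean was 0.347 of the RT mean in Atf4WT and 0.433 in Atf4AKO mice (log2 fold changes -1.54 ± 0.13 and -1.22 ± 0.13, adjusted p = 5.36e-05 and 0.000195). Gstt3 went from 731, 951 and 743 to 382, 487 and 339 in Atf4WT and from 589, 806 and 598 to 411, 399 and 318 in Atf4AKO, without overlap (-1.01 ± 0.18 and -0.81 ± 0.18, adjusted p = 0.002 and 0.00721). Of the soluble GST signal per kilobase, Gstt1 made up 7.52% at RT and 3.13% after cold in Atf4WT, and 6.69% and 3.21% in Atf4AKO mice.

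The 3 genes of the pi cluster (24.2 kb, chr19:4035407-4059569) did not move together. Gstp1, the abundant member, had log2 fold changes of -0.10 and 0.01 that did not pass the test. Gstp2 went from 264, 242 and 392 to 226, 132 and 125 in Atf4WT (-0.91 ± 0.27, adjusted p = 0.0264) and from 233, 212 and 268 to 196, 115 and 137 in Atf4AKO (-0.70 ± 0.27, adjusted p = 0.0811). Gstp3 was rare, and its values are described below with the comparison of genotypes. Genes within the mu, theta and pi clusters are close copies of each other, and since uniquely mapped reads were counted, the split of reads between neighbours is uncertain.

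**Figure D4:**
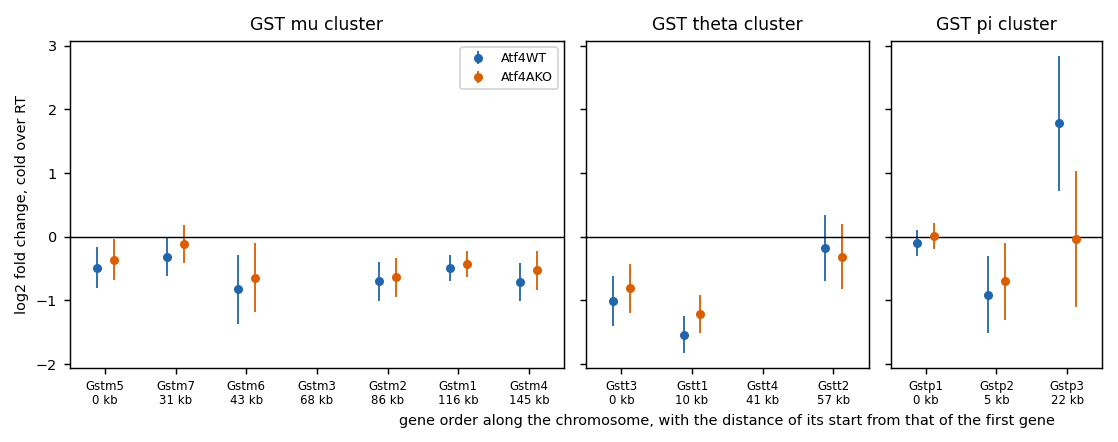
Log2 fold changes of cold over RT (points, with 95% intervals) for the genes of the GST mu, theta and pi clusters in their order along the chromosome, for Atf4WT and Atf4AKO mice. Distances are in kb from the start of the first gene; Gstm3 and Gstt4 were not tested, all mu and theta points are below 0, and Gstp3 is above 0 in Atf4WT.

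Outside the clusters, Gsta3 and Gsto1 rose in both genotypes. Gsta3, an alpha-class enzyme, measured 3319, 4559 and 2806 at RT and 7161, 7582 and 4826 after cold in Atf4WT, and 3192, 3096 and 2464 against 8764, 5502 and 7615 in Atf4AKO. The groups did not overlap, with log2 fold changes of 0.88 ± 0.23 and 1.30 ± 0.23 (adjusted p = 0.0144 and 0.00233). Gsto1, an omega-class enzyme that also reduces dehydroascorbate, rose by 0.59 in both genotypes (adjusted p = 0.00939 and 0.0112), and its neighbour in class Gsto2 fell by 0.90 and 0.60 (adjusted p = 0.00626 and 0.0456). Gsta4, Gstk1 and Gstz1 did not pass the test. Of the soluble GST signal per kilobase, Gsta3 was at 3.13% at RT and 6.88% after cold and Gsto1 at 4.94% and 8.98% in Atf4WT, and the values were 2.57% and 7.14%, and 5.56% and 9.25%, in Atf4AKO mice.

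The membrane-bound Mgst1, which also has peroxidase activity, had the highest level per kilobase of all members and ranked at place 50 of the genes with a position. This rank depends on the merged exon lengths, such as 2013 bases for Mgst1 and 3970 for Sod1. It measured 25954, 23696 and 22406 at RT and 38629, 35392 and 32655 after cold in Atf4WT, and 24249, 30778 and 28370 against 37155, 42354 and 43358 in Atf4AKO. All cold libraries were above the RT libraries (log2 fold changes 0.57 ± 0.12 and 0.56 ± 0.12, adjusted p = 0.00578 and 0.00702). Mgst2 went from 504, 582 and 365 to 899, 1061 and 628 in Atf4WT and from 395, 568 and 438 to 889, 873 and 852 in Atf4AKO (0.83 ± 0.21 and 0.92 ± 0.21, adjusted p = 0.0135 and 0.00982), whereas Mgst3 (-0.03 and 0.26) did not pass the test.

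**Figure D5:**
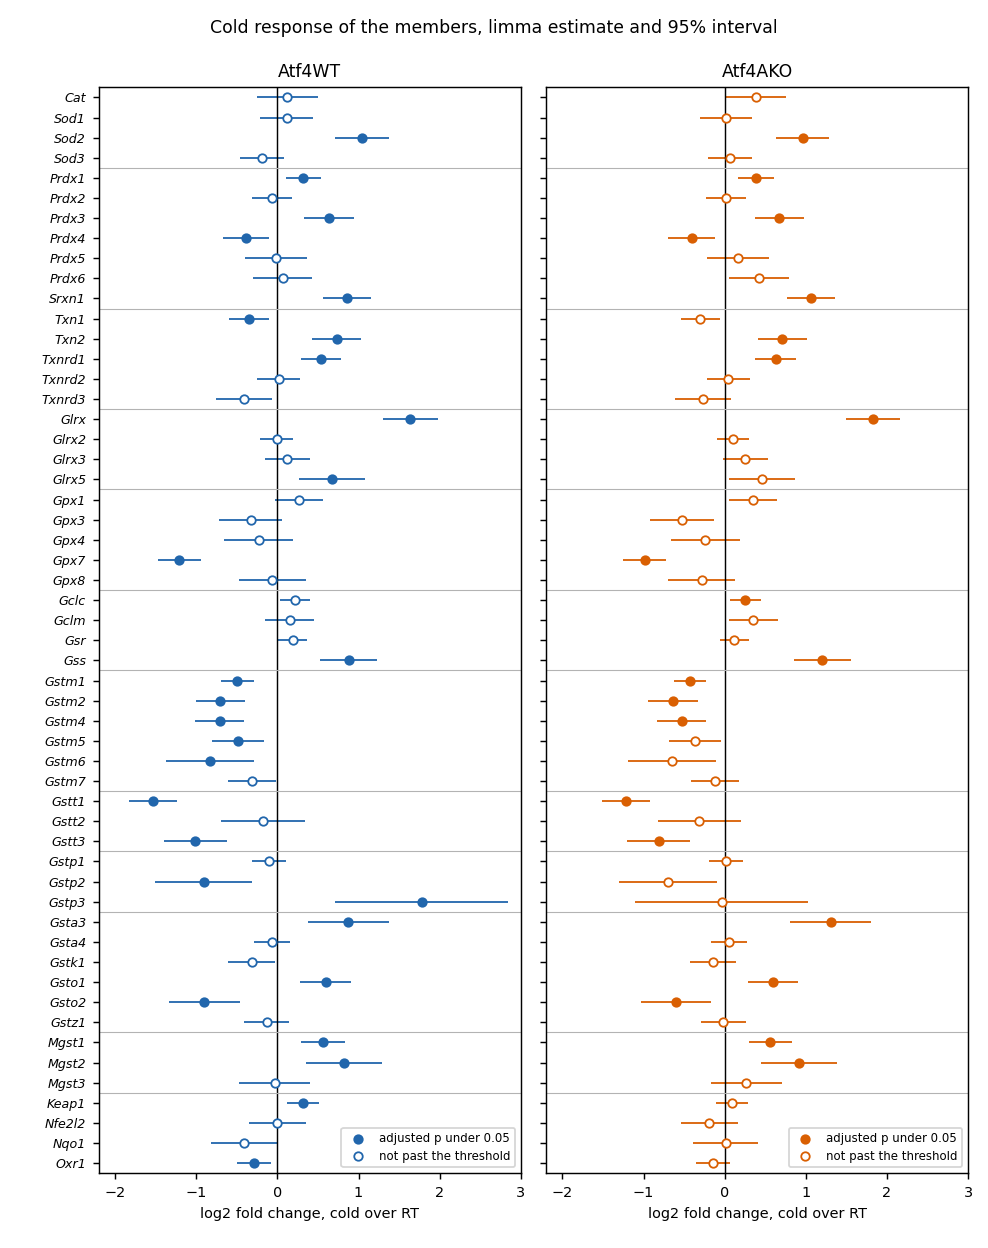
Log2 fold changes of cold over RT for the 54 tested members (limma estimate and 95% interval) in Atf4WT (left) and Atf4AKO (right); filled points passed an adjusted p-value under 0.05. The 12 genes that rose and the 8 that fell in both genotypes stand on the same side of 0 in both panels, and Gstp3 has the widest intervals.

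A list of 9 members was read for enzymes usually placed in mitochondria (Sod2, Prdx3, Prdx5, Txn2, Txnrd2, Glrx2, Glrx5, Gstk1 and Gpx4). Of these, 4 rose in Atf4WT and 3 in Atf4AKO mice and none fell, with median log2 fold changes of 0.016 and 0.16. Of all tested genes, 17% and 14.8% rose and 14.9% and 11% fell. In either direction 44.4% and 33.3% of the 9 were called. Of the 45 other tested members, 53.3% and 40% were called, with medians of -0.064 and 0.014. Some of them also act elsewhere in the cell, and partly mitochondrial members such as Gpx1 were not on the list.

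Nfe2l2 encodes NRF2, the transcription factor that activates many of these genes under oxidative stress, and Keap1 encodes the protein that targets NRF2 for degradation. Nfe2l2 measured 2186 to 3159 at RT and 2381 to 3000 after cold in Atf4WT, with a log2 fold change of 0.00 in Atf4WT and -0.19 in Atf4AKO mice (adjusted p = 0.999 and 0.4). Keap1 was higher after cold in Atf4WT (0.31 ± 0.09, adjusted p = 0.0223) and had a value of 0.09 in Atf4AKO mice (adjusted p = 0.466). Nqo1, a quinone reductase widely used as a reporter of NRF2, had values of -0.41 (adjusted p = 0.107) and 0.01 (adjusted p = 0.96). Oxr1, an oxidation resistance gene, fell in Atf4WT (-0.29, adjusted p = 0.0372) and had a value of -0.15 in Atf4AKO mice (adjusted p = 0.273).

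The antioxidant response element, to which NRF2 binds, was searched by its core TGACNNNGC on both strands in RefSeq promoter windows (GRCm38.p6, 250 bases before to 50 after the gene start), which were given for 49 of the 56 members. A match was found in 10 of 49 members (20.4%), in 16.7% of the listed genes with a window and in 14% of all RefSeq genes with one. It was found in 5 of the 15 windows of members that rose in at least 1 genotype (33.3%) and in 1 of the 12 windows of members that fell (8.33%). The C/EBP-ATF response element, to which ATF4 binds, was searched by its core TGATGNAA in the same way and matched 0 of the 49 members, 2.82% of the listed genes and 4.51% of all genes. The windows are short, and a match is not a measured binding site. Shown are the upstream stretches around the match in 4 members that rose in both genotypes and in Gstm5, the member with a match that fell, each on the strand of its gene with the match in capitals. They are from chr4:116685426-116685514 (plus strand), chr10:82859074-82859162 (plus), chr6:138140431-138140519 (plus), chr1:21240424-21240512 (plus) and chr3:107895772-107895853 (plus).
Prdx1: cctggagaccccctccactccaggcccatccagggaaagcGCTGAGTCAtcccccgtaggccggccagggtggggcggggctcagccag
Txnrd1: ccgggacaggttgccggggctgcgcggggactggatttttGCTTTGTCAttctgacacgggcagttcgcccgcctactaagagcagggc
Mgst1: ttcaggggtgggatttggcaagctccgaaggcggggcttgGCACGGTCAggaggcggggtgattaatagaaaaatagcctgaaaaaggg
Gsta3: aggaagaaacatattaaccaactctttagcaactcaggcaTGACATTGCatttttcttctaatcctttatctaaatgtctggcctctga
Gstm5: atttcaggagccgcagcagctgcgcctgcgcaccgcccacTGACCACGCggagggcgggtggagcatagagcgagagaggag
Distances are from the RefSeq start of the window, which can differ from the start in the GENCODE annotation that gives the other positions. In that annotation the stretches printed for Txnrd1 and Mgst1 lie inside the gene, that for Gstm5 spans the start, and those for Prdx1 and Gsta3 lie before it. The match began 133 bases before the RefSeq start in Prdx1, 92 in Txnrd1, 56 in Mgst1, 121 in Gsta3 and 42 in Gstm5. In Prdx1, Txnrd1 and Mgst1 the core reads on the opposite strand, so that the capitals show its reverse complement. Srxn1, which also rose, had its match 28 bases after the start.

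The genotypes were then compared directly, as the study asked about redox balance after loss of ATF4 in adipocytes. No member passed the test between Atf4AKO and Atf4WT mice for the size of its cold response, after cold or at RT (limma, adjusted p-value under 0.05). Among the 13404 genes, 0 were called for the difference of cold responses, 4 (0.0298%) after cold and 1 (0.00746%) at RT, all lower. On the recovered reads edgeR called 0, 3 and 1 genes in these comparisons. DESeq2 called 3 higher and 125 lower for the difference of cold responses, 29 higher and 562 lower after cold and 1 higher and 3 lower at RT, among which Gstp3, lower after cold, was the only member. At an unadjusted p-value under 0.05 the members numbered 1, 1 and 0, where 6.92%, 11.7% and 1.53% of all tested genes passed. The difference of cold responses (Atf4AKO minus Atf4WT) had a median of 0.11 across the members, against 0.035 for all genes, and the 95% intervals had a median width of 0.864 on the log2 scale. For Sod2 the difference was -0.08 with an interval from -0.55 to 0.38, for Gpx1 0.09 (-0.33 to 0.50), for Cat 0.26 (-0.27 to 0.79), for Sod1 -0.10 (-0.56 to 0.36) and for Gss 0.32 (-0.17 to 0.82). Members called in a single genotype, such as Glrx5 (-0.21, -0.79 to 0.36) and Keap1 (-0.22, -0.50 to 0.06), are therefore not shown to respond differently. After cold, 47 of the 54 members had a log2 difference above 0 between Atf4AKO and Atf4WT mice, with a median of 0.13 against 0.046 for all tested genes. The lower and upper quartiles of all tested genes were -0.114 and 0.151. The members were compared in the same libraries, so their signs are not independent. Scaling to the 75th percentile shifted the cold Atf4AKO group by -0.043 and the cold Atf4WT group by 0.001 on the log2 scale. The groups did not overlap for Srxn1, Gsta4, Txnrd1 and Txnrd3, which were higher in Atf4AKO, and for Gstp3, which was lower, where 8.68% of all tested genes were higher and 7.84% lower without overlap.

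Gstp3 was the member with an unadjusted p-value under 0.05 in these comparisons, and it is singled out after its values were seen. It measured 11.9, 16.4 and 21.3 normalized counts in Atf4WT at RT and 26.7, 82.3 and 86.6 after cold. In Atf4AKO it measured 9.30, 26.9 and 18.6 at RT and 17.0, 15.9 and 16.1 after cold. The log2 fold change with cold was 1.78 ± 0.49 in Atf4WT (adjusted p = 0.0176) and -0.04 ± 0.49 in Atf4AKO mice, and the difference of -1.81 (95% interval -3.32 to -0.31) had an adjusted p-value of 0.581. At the threshold of the study it was the member called lower in that difference (4.17% of all tested genes) and between the genotypes after cold (6.04%). The log2 difference between genotypes after cold was -1.76 (adjusted p = 0.123). The 2 Atf4WT libraries with the high values, replicates 1 and 2 after cold, were also those with the highest sums of T cell markers (3867 and 4428, against 195 to 788 in the other 10 libraries), and with the mean log2 level of lymphocyte markers as a covariate its log2 fold change in Atf4WT was 1.06 ± 0.74 (limma adjusted p = 0.375). Whether lymphocytes contribute to its level was not tested.

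RNA of other cell types moved with some of the changes. The 8 fibroblast markers summed to 177728 to 257716 in the 6 RT libraries and to 50581 to 122016 in the 6 cold libraries, with 3 of 8 lower in Atf4WT and 5 of 8 in Atf4AKO mice (median log2 fold changes -1.34 and -1.40), beside the falls in Gpx7, Prdx4 and the GSTs of the mu and theta classes. With the mean log2 level of these markers as a covariate, Sod2, Srxn1, Txnrd1, Glrx and Gss still rose and Gpx7, Gstm4, Gstt1 and Gstt3 still fell in both genotypes, and in all 5 rose and 8 fell in Atf4WT and 6 rose and 4 fell in Atf4AKO mice. Fewer of all tested genes were called too, 7.75% higher and 7.7% lower in Atf4WT and 5.96% and 3.86% in Atf4AKO mice. The members whose calls ended had the same sign and larger SEs, as for Mgst1 in Atf4AKO (0.52 ± 0.18 against 0.56 ± 0.12 without the covariate) and Prdx3 in Atf4AKO (0.61 ± 0.20 against 0.67 ± 0.14). Prdx4 shrank more, to -0.23 from -0.39 in Atf4WT and to -0.25 from -0.41 in Atf4AKO, as did Gstp2 in Atf4WT (-0.45 against -0.91). Of the lost rises in Atf4WT, Glrx5 (0.37 against 0.67), Mgst2 (0.58 against 0.83) and Gstp3 (1.18 against 1.78) also shrank more. Prdx1 (0.34 against 0.32) and Gsta3 (0.98 against 0.88) did not shrink. Relative to the fit without the covariate, the median size of the lost rises was 0.80 in Atf4WT and 0.81 in Atf4AKO. For the lost falls it was 0.99 and 0.91. The lost calls alone do not show that the changes went away. The lymphocyte markers were higher in cold-exposed Atf4WT mice alone (8 of 8 B cell and 6 of 7 T cell markers, 0 in Atf4AKO). With the lymphocyte level as a covariate, 14 members rose and 2 fell (Gpx7 and Gstt1) in Atf4WT, and 13 rose and 8 fell in Atf4AKO mice. In Atf4WT 10.1% of all tested genes were then higher and 3.82% lower, and in Atf4AKO mice 15.1% and 11.4%. The 11 falls in Atf4WT that were no longer called had the same sign, as for Gstt3 (-0.84 ± 0.28 against -1.01 ± 0.18 without the covariate) and Gstm1 (-0.34 ± 0.13 against -0.49 ± 0.09), so their loss does not show that they go with lymphocytes. Without the 2 Atf4WT libraries with the highest muscle markers, 7 rose (Sod2, Prdx3, Srxn1, Txn2, Glrx, Gss and Gstp3) and 8 fell (Gpx7, Gstm1, Gstm2, Gstm4, Gstt1, Gstt3, Gstp2 and Gsto2) in Atf4WT, beside 12.6% and 11.2% of all tested genes. Each Atf4WT group then held 2 libraries. The 8 lost rises kept their sign, at a median of 0.72 of their main log2 size (lowest 0.56). For the 5 lost falls the median was 1.07. The part of these cells in the changes was not tested further.

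The supply and partner genes of the same pathways were read from a list of 82 genes, of which 77 were listed and tested. In Atf4WT 13 rose and 8 fell, and in Atf4AKO 8 rose and 5 fell (27.3% and 16.9% of them, against 31.9% and 25.9% of all tested genes), with median log2 fold changes of 0.14 and 0.015. At an adjusted p-value under 0.05, 0 were called in any comparison of genotypes. Of 12 genes of glutathione precursor supply and breakdown, 3 rose in both genotypes, 2 fell in Atf4WT and 0 fell in Atf4AKO mice. Called in either direction were 41.7% in Atf4WT and 25% in Atf4AKO mice, and the median log2 fold changes were 0.23 and 0.018. Slc3a2, the heavy chain of the cystine transporter and of other amino acid transporters, had log2 fold changes of 1.00 and 1.22 (adjusted p = 0.000245 and 8.73e-05). Oplah, which returns 5-oxoproline to glutamate, had 0.90 and 0.95, and Slc25a39, the carrier that brings glutathione into mitochondria, 0.94 and 0.87. Their 6 cold libraries were all above the 6 RT libraries, as for Slc25a39 at 8770 to 11885 against 4087 to 6717 normalized counts.

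Of 18 other NRF2 targets and repair genes, 2 rose and 2 fell in Atf4WT and 1 rose and 1 fell in Atf4AKO mice. This was 22.2% and 11.1% of them, against 31.9% and 25.9% of all tested genes, with median log2 fold changes of -0.014 and 0.036. Osgin1, an NRF2 target, rose by 1.17 and 1.31 on the log2 scale, whereas Hmox1, another target, had values of -0.14 and 0.26 that did not pass the test. Of 6 small MAF, BACH and related factors, 2 rose in Atf4WT and 1 in Atf4AKO mice. Mafg, a partner of NRF2 on DNA, rose by 0.50 and 0.87. The methionine sulfoxide reductase Msrb3 fell by 0.90 and 0.65. Of the 15 genes of NADPH supply, 1 rose and 2 fell in Atf4WT and 1 fell in Atf4AKO mice (20% and 6.67% called). Idh2, the mitochondrial NADPH-forming isocitrate dehydrogenase, fell by 0.75 and 0.58 (adjusted p = 0.000327 and 0.00151), and Aldh1l2 had values of -1.60 (adjusted p = 0.011) and -1.15 (adjusted p = 0.0517). The one that rose in Atf4WT was Mthfd2, a mitochondrial folate enzyme that can form NADPH and the gene on which the study centred. It measured 164, 182 and 146 at RT and 261, 536 and 391 after cold in Atf4WT, and 117, 87.6 and 145 against 141, 59.0 and 83.8 in Atf4AKO. The log2 fold changes were 1.21 and -0.36, and the difference of -1.57 had an adjusted p-value of 0.474. After cold the genotypes did not overlap for Mthfd2, and its log2 difference (Atf4AKO minus Atf4WT) was -2.08, the lowest of the 15 genes. None of the 15 passed the limma test after cold, where the smallest adjusted p-value was 0.0648. At the threshold of the study, Mthfd2 was the 1 gene of the 15 called lower after cold (6.04% of all tested genes). It was also the 1 called lower in the difference of cold responses (4.17%). Of 9 genes of selenocysteine insertion and selenium supply, 4 rose in Atf4WT and 2 in Atf4AKO mice and none fell, with Secisbp2, which binds the selenocysteine insertion element, called in both. These calls made up 44.4% and 22.2% of the 9, against 31.9% and 25.9% of all tested genes.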

How the data were processed

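Libraries were strand-specific. The authors cleaned reads in SOAPnuke, aligned against mm10 (STAR), assigned unique alignments to genes in featureCounts, and scaled the counts by DESeq2 size factors. Tool versions and the strand setting of the counting are not given in the sources used here. The deposited values are therefore a normalized signal, in which division by the value of 1 read gave whole reads for 100% of values (largest deviation 0.000313 reads). All 12 columns were used and 0 were left out. Depth was 25719476 to 29105147 reads per library. The study describes the replicates as independent biological ones.

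Comparisons used limma 3.58.1 under R 4.3.3 with a variance trend, fitted to log2(normalized count + 1) for 13404 genes averaging 10 or more, in a model of 4 group means, with Benjamini-Hochberg adjustment over all of them. Log2 fold changes are on this scale, which understates changes of rare genes. The study's own DESeq2 test was an alternative (DESeq2 1.42.0 on the recovered reads), as were edgeR 4.0.16, other pseudocounts, filters and scalings, array weights, a replicate block, covariates and leaving out libraries. On these reads edgeR called 2181 genes higher and 2126 lower with cold in Atf4WT and 1996 and 1468 in Atf4AKO mice. Gene positions and exon lengths came from GENCODE M21 (mm10) and promoter sequences from RefSeq (GRCm38.p6). An exon length covered all annotated exons of a gene, merged over its transcripts, such as 4208 bases for Txn2 and 1051 for Txn1. Which transcripts were expressed was not determined, so levels and shares per kilobase compare genes only roughly.

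The members, gene lists and tests were chosen with earlier results of these data known. Library values were given in full for the 10 called members with the largest mean log2 fold change over both genotypes and a mean of at least 50, the 4 most abundant called members, Sod1, Sod2, Gpx1, Cat, and members under an unadjusted p-value of 0.05 between genotypes. Of the other pathway genes, the 8 called ones with the largest mean change were named, and Hmox1 and Secisbp2 were named outside this rule. Txn1, Txn2, Gstm1, Gstp3 and Mthfd2 were added after their values were seen, as were the covariate of fibroblast markers and the fit without 2 libraries.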

Additional observations from a re-analysis of the deposited data

How the results depend on the processing

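No called member changed sign in the up to 26 alternatives that gave it a value. In Atf4WT mice, leaving out 1 library gave 9 to 15 members that rose (9 without replicate 1 after cold) and 7 to 14 that fell (7 without replicate 2 after cold, 8 without replicate 0 or 1 at RT). In Atf4AKO mice it gave 11 to 16 that rose and 5 to 10 that fell (5 without replicate 1 at RT or replicate 2 after cold). The threshold of the study gave 8 falls in Atf4WT. The lymphocyte covariate left 2 falls in Atf4WT, and the 11 falls no longer called kept their sign and more than 0.5 of their log2 size, with larger SEs. The fibroblast covariate, chosen after seeing the data, gave 5 rises and 8 falls in Atf4WT and 6 and 4 in Atf4AKO mice. Leaving out the 2 Atf4WT libraries with high muscle markers, also a later choice, gave 7 and 8 in Atf4WT. For the difference of cold responses, 1 member (Gstp3) was lower at the threshold of the study. Between the genotypes after cold, Gstp3 was the 1 member called lower with DESeq2, at the threshold of the study, without replicate 0 of cold-exposed Atf4WT mice and without the 2 libraries above, so that the range was 0 to 1. Calls that ended in 7 or more of 26 fits were Gclc and Gsto2 in Atf4AKO (14 each), Prdx4 in both (11), Txn1 and Oxr1 (8) and Prdx1, Gstm5, Gstm6 and Gstp2 (7) in Atf4WT. Some fits also gained calls, such as Gpx3 (lower in Atf4AKO with DESeq2 and TMM scaling) and Gpx1 (higher in Atf4AKO with DESeq2). Rises and falls were 15 and 14 in Atf4WT and 13 and 7 in Atf4AKO with edgeR, 16 and 14 and 14 and 10 with DESeq2, 15 and 13 and 12 and 10 with TMM scaling. Of 13552 genes DESeq2 called 2576 higher and 2219 lower in Atf4WT and 2253 and 1758 in Atf4AKO. The edgeR numbers over all genes are given above. Shares of all genes are not given for TMM scaling, the replicate block or the fits without 1 library. Those member counts are thus not set against all calls. Over all genes DESeq2 called 562 lower between genotypes after cold, where limma called 4. Of the 18 pairs of same-numbered libraries, 8 had deviations correlated over 0.1 (r from -0.189 to 0.389), among them all 6 pairs of replicate 1 (0.179 to 0.389), and the remaining pairs did not, so the numbers were not taken to pair the samples. With the replicate number as a block, 15 rose and 15 fell in Atf4WT, 17 and 8 in Atf4AKO mice, and 0 differed between genotypes. Where no cause is visible from the alternative itself, the cause was not tested.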
